A study of Mus musculus with 20 samples.

Results

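The genes described here are 10 glutathione S-transferases, Gstt1, Gsta3, Gsta4, Gstm1, Gstm2, Gstp1, Gsto1, Mgst1, Mgst2 and Mgst3, measured in mouse blood. They were taken by the gene names printed in the array files, out of 31093 names on the arrays, and all 17 probes that carry 1 of these names were read. The blood came from male littermate mice of 8 to 10 weeks, either wild-type C57BL/6 (WT) or carrying the Il10tm1Cgn deletion in the same background (Il10-/-), which were bred from heterozygous parents. Il10-/- mice lack the anti-inflammatory cytokine interleukin 10 and serve as a model of inflammatory bowel disease. Mice of each genotype received either a whole-body X-ray dose of 7 Gy or a sham exposure (0 Gy), and blood was drawn from the heart 24 h later. Each of the 4 groups had 5 mice with 1 array each, and the groups are named here by genotype label and dose (WT 0 Gy, WT 7 Gy, Il10-/- 0 Gy, Il10-/- 7 Gy). The RNA came from whole blood after removal of most globin transcripts, so fewer cells of a type and less RNA per cell cannot be told apart.

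Glutathione S-transferases join the tripeptide glutathione to reactive compounds, which makes these compounds soluble and ready for export. The cytosolic enzymes are grouped into classes by sequence, here theta (Gstt1), alpha (Gsta3, Gsta4), mu (Gstm1, Gstm2), pi (Gstp1) and omega (Gsto1), while Mgst1, Mgst2 and Mgst3 belong to a separate family of membrane proteins. Alpha, mu and pi enzymes and Mgst1 are abundant in liver. In humans, blood cells hold theta, omega and pi enzymes, and theta-class activity is well known in red blood cells. Serum albumin (Alb), a product of hepatocytes, was read beside the 10 genes, because its signal varied widely between arrays of the same group.

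All values below are log2 signals after subtraction of the median of each array, so that 0 is the median probe of that array, and levels are compared between arrays but not between probes. Between 29.9% and 57.8% of the spots of an array stood well above background, with the lowest share in replicate 5 of WT 0 Gy. The Il10 probe went against the genotype labels: its mean was -1.54 in WT 0 Gy and -1.85 in WT 7 Gy, where it was well above background on 0 of 5 arrays each. In Il10-/- 0 Gy and Il10-/- 7 Gy its mean was 2.75 and 2.71, well above background on 5 of 5 arrays each. The probe may lie outside the altered part of the gene, so it settles nothing about the labels. The mean level of 9 neutrophil markers was 7.23 to 9.32 in Il10-/- 0 Gy and 4.45 to 6.21 in WT 0 Gy, without overlap. It was 6.27 to 8.63 in Il10-/- 7 Gy and 5.02 to 5.83 in WT 7 Gy, again without overlap, and its part in the differences of the 10 genes was not tested. Every direction between genotypes below is one between arrays so labelled. Within each group replicates 1 and 2 lay closer to each other than any other pair. The median absolute deviation of their log2 differences was 0.14 to 0.23 over the 4 pairs, against 0.25 to 1.09 over the 36 other pairs. They were counted as separate mice.

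Of the 17 probes, 16 passed the filter on background and the filter on variation, and each of the 10 genes had at least 1 of them. Another Gstm2 probe, well above background on 6 of 20 arrays, was removed by the background filter and is given by its values. For each gene the brightest probe that passed is its lead probe. The probe sequences show which end of the transcript was read, and whether probes of different genes share a run of bases. The lead probes of Gstt1, Gstm1 and Gstm2 hold the polyadenylation signal AATAAA (capitals), that is, they read the last bases of the transcript. The windows shown are 30 bases, 5′ to 3′.
Gstt1, on mm9 chr10:75246560-75246619, minus strand, probe bases 22 to 51: ttgagtctgggtAATAAActggggcttgat
Gstm1, placed on mm9 chr5:117082490-117082549, minus strand, probe bases 30 to 59: tgtctcatctacAATAAAgtctgaaacaca
Gstm2, on mm9 chr3:107784622-107784681, minus strand, probe bases 31 to 60: cccatttggttctcAATAAAgtgtgaatca
The probes of Alb, Gstp1, Gsta4 and Mgst3 hold a reading frame that is open from the first to the last of their 60 bases, and the Mgst2 probe holds one that ends with its last codon, the stop codon TAA (capitals). They are printed in full because these genes take opposite sides in the comparison with Alb.
Alb, on mm9 chr5:90901598-90901657, plus strand: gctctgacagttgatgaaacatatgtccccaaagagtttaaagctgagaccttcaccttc
Gstp1, not placed in the array files: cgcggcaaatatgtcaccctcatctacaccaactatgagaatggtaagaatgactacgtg
Gsta4, not placed in the array files: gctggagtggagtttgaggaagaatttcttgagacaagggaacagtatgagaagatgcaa
Mgst2, on mm9 chr3:51486449-51486508, plus strand: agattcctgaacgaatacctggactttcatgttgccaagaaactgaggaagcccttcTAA
Mgst3, on mm9 chr1:169303928-169303987, minus strand: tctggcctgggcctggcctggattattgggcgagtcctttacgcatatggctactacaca

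None of the 17 probes shared a run of 16 bases with a probe of any other gene name on the array (0 of 17). The longest shared run with another transferase was 13 bases, between the Gstp1 lead probe and a probe of Gstp2, its neighbour in the genome with a nearly identical coding sequence. This compares probes with probes only, so it cannot show whether the transcript of a close relative binds a probe. Signals of Gstp1 and Gstp2, and of the mu-class genes Gstm1 and Gstm2, are therefore reported as those of the probes. The array files place the Gstm1 lead probe on chromosome 5 and its second probe on chromosome 3, at mm9 chr3:107815595-107815654, beside Gstm2. The 2 Gstm1 probes nonetheless moved together over the 20 arrays, with r = 0.99 of their deviations from the group means.

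Gstt1, Gsta3 and Mgst1 were higher in the blood of unirradiated mice labelled Il10-/- and of irradiated mice labelled WT than in that of unirradiated mice labelled WT, and Mgst3 was lower after irradiation in mice labelled Il10-/-. The call asked for a p under 0.001 together with a Benjamini-Hochberg adjusted p under 10% across the 18655 features tested. Between Il10-/- 0 Gy and WT 0 Gy, 3 of the 10 genes were called, Gstt1, Gsta3 and Mgst1, where 0.852% of all features were called. All 3 were higher in the arrays labelled Il10-/-, as were all 159 features called there, with 0 called lower. With the 75th percentile 42 features were called higher and 2 lower, and with a reference array 76 and 6. Between WT 7 Gy and WT 0 Gy the called members were again Gstt1, Gsta3 and Mgst1, all higher after irradiation, against 6.78% of all features called in either direction, 4.47% higher and 2.31% lower. Between Il10-/- 7 Gy and Il10-/- 0 Gy only Mgst3 was called, and it was lower after irradiation, against 9.13% of all features called, 3.29% higher and 5.84% lower. These were 613 and 1090 features, against 935 and 923 with arrays scaled to a reference array. The first 2 comparisons share the WT 0 Gy arrays, and the first and the last share the Il10-/- 0 Gy arrays. Gstt1 was the only member still called between the unirradiated groups (1 gene) when arrays were scaled by their 75th percentile, by quantiles or to a reference array, and no member was called with normexp background correction or without moderated variances. Gstt1 was also the only one left without replicate 3 or 4 of Il10-/- 0 Gy or without replicate 4 or 5 of WT 0 Gy, each left out alone, and without replicate 3 of WT 0 Gy Gsta3 was lost.

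Scaling mattered in the WT response too. Scaled by the 75th percentile or to a reference array, it called 2 members, Gstt1 and Gsto1, so that Gsta3 and Mgst1 were lost, and scaled by quantiles it called 4, Gstt1, Gsta3 (by its second probe), Gsto1 and Mgst3. Over all features, 834 were called higher and 431 lower here, against 794 and 759 with the 75th percentile and 706 and 694 with quantiles. Gstt1 alone was called without replicate 4 of WT 0 Gy, and Gstt1 and Gsto1 without replicate 5 of WT 0 Gy. Gstm1 and Gstm2 joined the 3 called members without replicate 4 or 5 of WT 7 Gy, giving 5 genes.

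Between the irradiated groups, Il10-/- 7 Gy against WT 7 Gy, limma called 0 of the 10 genes and 0.0107% of all features, and 1 lead probe had an unadjusted p under 0.05. No lead probe separated these groups without overlap (0 of 10), which holds for 2.95% of all features, 2.24% on the higher side. The difference between the radiation responses, tested as an interaction of genotype label and dose over all 20 arrays, called 0 members and 0 features (0%) in limma, with 4 lead probes and 1334 of all features at an unadjusted p under 0.05. The interaction was below 0 for 10 of 10 lead probes, with a median of -1.67 against -0.20 over all features, though that of Mgst2 turned to between 0.023 and 0.10 under other scalings of the arrays and that of Gsta4 to 0.69 in the table of processed values. With Alb as a covariate it was above 0 for Gsta3 (0.29), Gsta4 (0.50), Gstm1 (1.22) and Gstm2 (0.61). The signs of the 10 lead probes are not independent, since members moved together, such as Gstm1 and Mgst1 (r = 0.96). Over all features the median interaction was 0.12 with the 75th percentile, 0.08 with a reference array and 0.13 in the table of processed values. It was -0.10 with quantiles and -1.01 with normexp. The median difference of the 10 lead probes was 1.34 between the unirradiated groups (0.36 over all features) and 2.64 in the WT response (-0.02 over all features). It was 0.39 in the Il10-/- response (-0.10 over all features) and -0.27 between the irradiated groups (0.08 over all features).

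**Figure D1:**
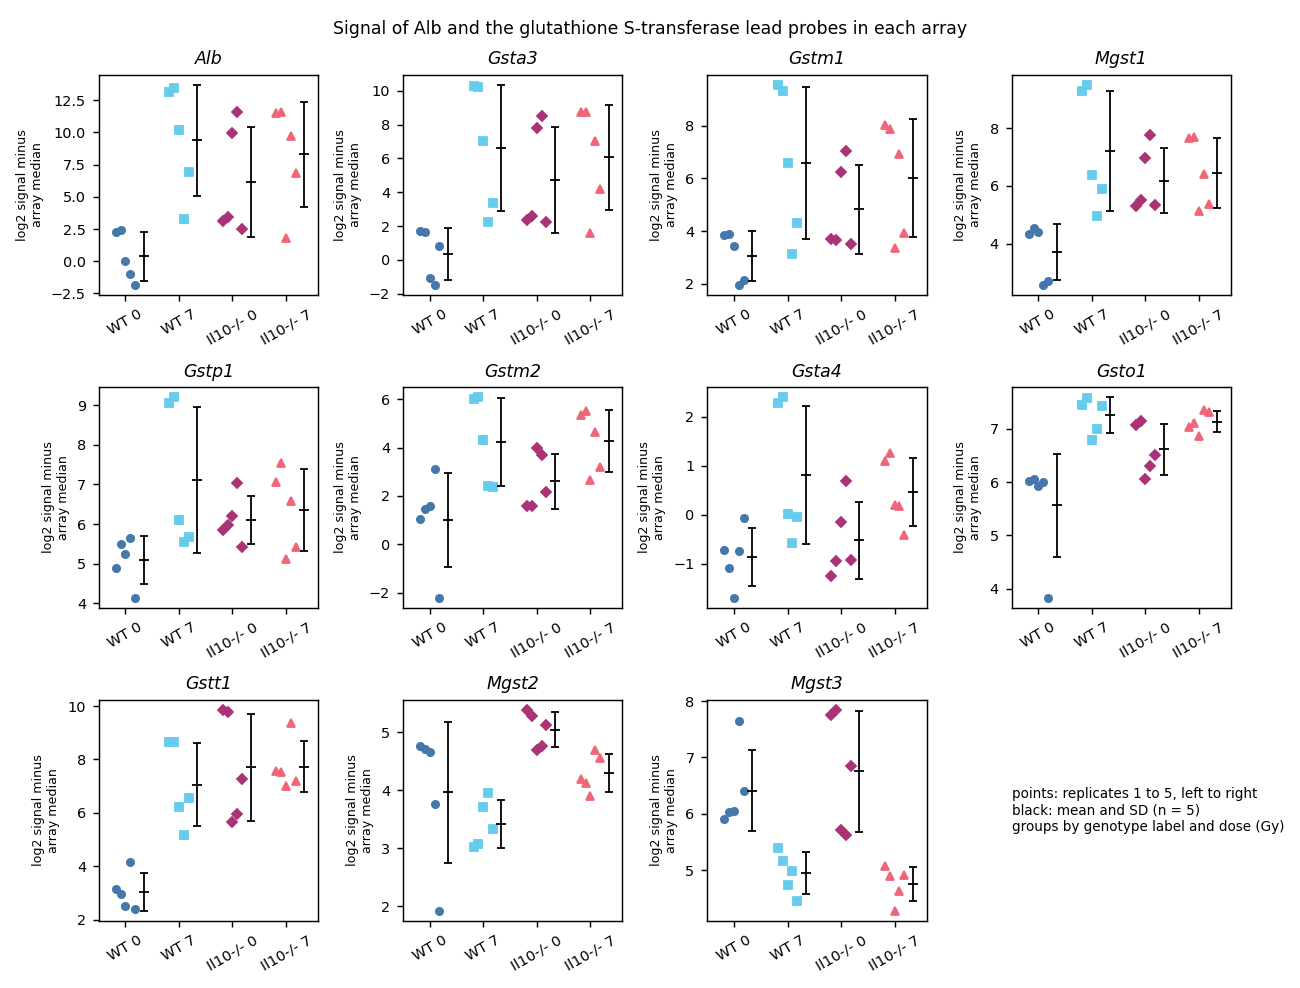
Log2 signal minus the array median (vertical axes, each panel on its own scale) of Alb and the lead probes of the 10 transferases in the 4 groups, with 1 point per array, replicates 1 to 5 from left to right, and the mean with its SD (n = 5) in black. Gsta3 and Gstm1 spread within the groups as Alb does, from 2.26 to 8.50 for Gsta3 in Il10-/- 0 Gy, whereas all Gstt1 values of WT 0 Gy, up to 4.16, lie below those of the other 3 groups, and all Mgst3 values of both irradiated groups, up to 5.39, lie below those of the unirradiated groups.

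Gstt1, the theta-class enzyme that conjugates small halogenated compounds, separated the unirradiated WT arrays from every other group, and so did Mgst1. The log2 signal of Gstt1 was 3.15, 2.97, 2.52, 4.16 and 2.40 in replicates 1 to 5 of WT 0 Gy, well above background on 4 of 5 arrays. It was 9.84, 9.79, 5.67, 5.96 and 7.26 in Il10-/- 0 Gy and 8.67, 8.64, 6.22, 5.17 and 6.56 in WT 7 Gy. Neither group overlapped with WT 0 Gy, which holds for 3.97% of all features on the higher side in the first comparison and 11.8% in the second. In the Il10-/- 0 Gy arrays Gstt1 was 4.67 ± 0.71 (SE, 5 against 5 arrays) higher than in WT 0 Gy, or 25.4-fold, with an adjusted p of 0.0049 in limma. Over all features the median of this comparison was 0.36, and 0.01 with arrays scaled to a reference array, where the Gstt1 difference was 4.38 ± 0.76. In WT 7 Gy it was 4.01 ± 0.63 higher than in WT 0 Gy, or 16.1-fold, with an adjusted p of 0.00097. Both differences were positive on 5 of 5 slides, where each slide holds 1 array of every group, and ran from 1.80 to 6.82 and from 1.01 to 5.67.

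In mice labelled Il10-/- the Gstt1 signal after irradiation was 7.56, 7.52, 7.01, 9.37 and 7.20 in replicates 1 to 5. These values lie inside the range of the unirradiated Il10-/- arrays, and the difference was 0.03 ± 0.82 with an adjusted p of 0.983, higher on 2 of 5 slides. The difference between the irradiated groups was 0.68 ± 0.70 with an adjusted p of 0.730. The interaction of Gstt1 was -3.98 ± 1.09 and did not pass the threshold, with an adjusted p of 0.681. That the radiation difference was smaller in the mice labelled Il10-/- is a description of these arrays only.

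Gsta3, an alpha-class enzyme of liver, showed the largest difference of the 10 lead probes in the WT response. Its log2 signal was 1.74, 1.68, -1.05, -1.47 and 0.83 in WT 0 Gy, and 2 of these 5 arrays had it well above background. It was 10.26, 10.20, 7.03, 2.23 and 3.39 in WT 7 Gy and 2.39, 2.61, 7.79, 8.50 and 2.26 in Il10-/- 0 Gy. Every array of these groups lay above WT 0 Gy, but the step was large in some mice and small in others. Such a separation holds for 11.8% of all features in the WT response and 3.97% between the unirradiated groups. The difference was 6.28 ± 1.31 in the WT response, with an adjusted p of 0.0056, and 4.36 ± 1.08 between the unirradiated groups, with an adjusted p of 0.091.

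A second Gsta3 probe, on mm9 chr1:21255043-21255102, was called in the WT response (5.87 ± 1.24, adjusted p 0.0060), and reached 3.95 ± 1.00 with an adjusted p of 0.104 between the unirradiated groups, where it was not called. In the Il10-/- response Gsta3 was 8.74, 8.75, 1.61, 7.00 and 4.18 after irradiation, a difference of 1.34 ± 1.60 with an adjusted p of 0.581, and the groups overlapped.

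Gsta4, the alpha-class enzyme that acts on lipid peroxidation products such as 4-hydroxynonenal, was the dimmest member. Its probe has 10 spots on the array and was well above background on 0 of 5 arrays of WT 0 Gy and 7 of 20 arrays in all. Its mean was -0.86 ± 0.59 (SD, n = 5) in WT 0 Gy, 0.82 ± 1.41 in WT 7 Gy, -0.52 ± 0.78 in Il10-/- 0 Gy and 0.47 ± 0.70 in Il10-/- 7 Gy. Since it was not well above background in any WT 0 Gy array, the WT response can be given only as at least 1.81-fold, with an adjusted p of 0.064, and the groups overlapped. No comparison called Gsta4.

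The mu-class genes Gstm1 and Gstm2, whose enzymes act on a wide range of electrophiles, had differences in the WT response that did not reach the call. Gstm1 read 3.87, 3.91, 3.45, 1.97 and 2.15 in WT 0 Gy and 9.56, 9.32, 6.59, 3.14 and 4.31 in WT 7 Gy. The groups overlapped, since replicate 4 of WT 7 Gy fell below 3 arrays of WT 0 Gy, although the difference was positive on 5 of 5 slides. Gstm1 differed by 3.51 ± 1.01 (adjusted p 0.029), which meets the Benjamini-Hochberg rate but not the limit on p, and with the slide as a replicate block it was called (3.51 ± 0.58, adjusted p 0.00087). Gstm2 differed by 3.24 ± 0.90 (adjusted p 0.025) and was likewise called with the block (adjusted p 0.0032). The dim Gstm2 probe differed by at least 1.5-fold in the same direction, being well above background on 0 of 5 arrays of WT 0 Gy and 3 of 5 of WT 7 Gy.

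Gstp1, the pi-class enzyme, is present in many cell types and also binds stress kinases. It read 4.89, 5.48, 5.24, 5.66 and 4.14 in WT 0 Gy and 9.05, 9.20, 6.11, 5.55 and 5.66 in WT 7 Gy. Only replicates 1 and 2 of WT 7 Gy stood far above the unirradiated arrays, and the groups overlapped. The difference was 2.03 ± 0.69 with an adjusted p of 0.060. Between the unirradiated groups it was 1.01 ± 0.42 with an adjusted p of 0.271, and in the Il10-/- response 0.25 ± 0.47 with an adjusted p of 0.728.

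Gsto1, the omega-class enzyme, which reduces dehydroascorbate and works through a cysteine, varied least within groups of all 10 lead probes, with a standard deviation of 0.58 pooled over the groups. It read 6.02, 6.06, 5.92, 6.00 and 3.83 in WT 0 Gy and 7.45, 7.59, 6.79, 7.01 and 7.44 in WT 7 Gy. All irradiated WT arrays lay above all unirradiated ones, which holds for 11.8% of all features on the higher side. The difference of 1.69 ± 0.46 was not called (adjusted p 0.023), and it was called with each array scaled to a reference array as in the table of processed values (1.60 ± 0.30, adjusted p 0.0037). Replicate 5 of WT 0 Gy, the array with the fewest spots above background, read 3.83, with the next lowest array at 5.92. Gsto1 differed by 0.52 ± 0.26 in the Il10-/- response, with an adjusted p of 0.173.

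Mgst1, a membrane-bound transferase and peroxidase of the endoplasmic reticulum and outer mitochondrial membrane, was called with both of its probes in the same comparisons as Gstt1 and Gsta3. It read 4.35, 4.53, 4.42, 2.58 and 2.72 in WT 0 Gy, all below the 9.29, 9.51, 6.36, 4.97 and 5.89 of WT 7 Gy. In Il10-/- 0 Gy it read 5.32, 5.53, 6.96, 7.77 and 5.34, again all above WT 0 Gy. Of all features, 11.8% lay wholly higher in the WT response and 3.97% between the unirradiated groups. The difference was 3.48 ± 0.79 (11.2-fold, adjusted p 0.0090) in the WT response and 2.46 ± 0.55 (5.51-fold, adjusted p 0.054) between the unirradiated groups. After irradiation of mice labelled Il10-/- it differed by 0.27 ± 0.62 with an adjusted p of 0.784.

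Mgst2, a membrane-bound enzyme that can make leukotriene C4, had its highest level in the arrays labelled Il10-/- 0 Gy. It read 5.38, 5.27, 4.70, 4.75 and 5.12 there and 4.19, 4.13, 3.90, 4.70 and 4.55 in Il10-/- 7 Gy. The irradiated arrays all lay below the unirradiated ones, at the nearest pair by less than the last digit printed, which holds for 10.8% of all features on the lower side. The difference of -0.75 ± 0.24 was not called (adjusted p 0.043). Between the irradiated groups Mgst2 was 0.87 ± 0.26 higher in the arrays labelled Il10-/-, on 5 of 5 slides, with an adjusted p of 0.366.

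Mgst3, the last membrane-bound member, fell after irradiation in the mice labelled Il10-/-. It read 7.75, 7.84, 5.70, 5.62 and 6.84 in Il10-/- 0 Gy and 5.06, 4.89, 4.28, 4.63 and 4.91 in Il10-/- 7 Gy. The groups did not overlap, which holds for 10.8% of all features on the lower side, and the difference was negative on 5 of 5 slides. It fell by 2.00 ± 0.44 (adjusted p 0.0083), and its second probe fell by 2.11 ± 0.46 (adjusted p 0.0082). With single arrays left out the difference was -2.28 to -1.72, and neither probe was called without any 1 of replicates 2, 3, 4 or 5 of Il10-/- 7 Gy or 1, 2 or 5 of Il10-/- 0 Gy. Nor was it called with normexp, without moderated variances or with replicates 1 and 2 averaged, a setting chosen after seeing the data. In the WT response it read 5.91, 6.03, 6.04, 7.64 and 6.40 before and 5.39, 5.16, 4.74, 4.99 and 4.45 after irradiation, again without overlap, which holds for 4.26% of all features on the lower side. This difference of -1.46 ± 0.41 was not called (adjusted p 0.027). The interaction was -0.53 ± 0.60 with an adjusted p of 0.831.

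**Figure D2:**
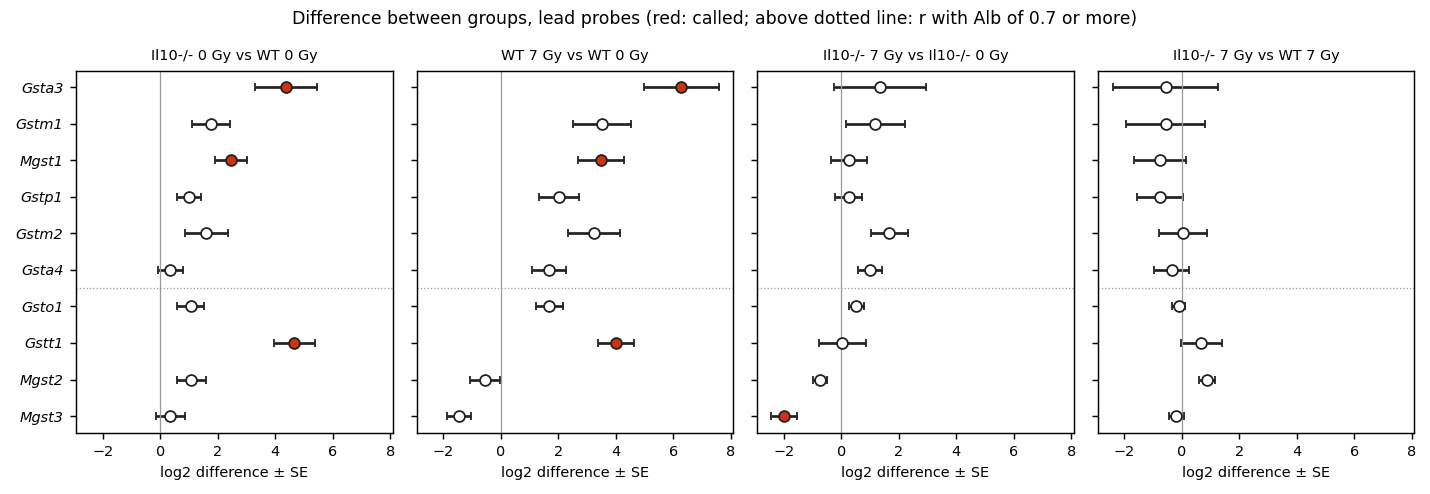
Log2 differences between groups (first minus second named, horizontal axes, points with SE of limma) of the lead probes of the 10 transferases in 4 comparisons of 5 against 5 arrays, with called differences in red and genes above the dotted line correlated with Alb at 0.7 or more. Gsta3, Mgst1 and Gstt1 are red in the first 2 panels, Mgst3 is the only red point in the next, and no point is red in the fourth.

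The 10 genes fell into 2 sets by whether they followed Alb between arrays of a group. Alb read 2.30, 2.40, 0.04, -1.02 and -1.83 in WT 0 Gy and 13.17, 13.42, 10.22, 3.31 and 6.91 in WT 7 Gy. It read 3.16, 3.43, 9.98, 11.56 and 2.53 in Il10-/- 0 Gy and 11.48, 11.60, 1.83, 9.68 and 6.88 in Il10-/- 7 Gy. It thus spanned 3.31 to 13.42, 2.53 to 11.56 and 1.83 to 11.60 among mice of the same genotype label and dose in these last 3 groups. It was at most 3.43 in all 5 arrays of WT 0 Gy, in 3 of 5 of Il10-/- 0 Gy and in 1 of 5 of each irradiated group.

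With group means removed, Gsta3 correlated with Alb at r = 0.96 (Spearman 0.97), Gstm1 at 0.95 (0.94) and Mgst1 at 0.90 (0.88). Gstp1 followed at r = 0.79 (0.80), Gstm2 at 0.76 (0.79) and Gsta4 at 0.71 (0.72). For these 6 genes the permutation p of r, from 100000 permutations within groups, ran from 1e-05, the smallest they can give, to 0.0029, and was 5e-05 to 0.0048 after Benjamini-Hochberg adjustment over the 10 genes. The permutation p of Spearman's rho adjusted in the same way ran from 3.33e-05 to 0.0041. Without the 2 arrays farthest from the median Alb deviation, replicate 4 of WT 7 Gy and replicate 3 of Il10-/- 7 Gy, the 6 values were 0.71 to 0.95. With the means of the slides removed as well they were 0.67 to 0.96, and Gsta4 fell to 0.67, below the limit of 0.7 used here for following Alb. Gsta4 was also below this limit, at 0.64, with arrays scaled to a reference array. The permutations count replicates 1 and 2 of a group as separate mice, and their p may be too small if these arrays are not independent. With replicates 1 and 2 averaged, 5 members reached the limit.

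Gsto1 (r = 0.08, Spearman -0.02), Gstt1 (0.04, 0.04), Mgst2 (-0.03, -0.22) and Mgst3 (-0.30, -0.17) did not follow Alb. Their adjusted permutation p was 0.361 to 0.890 for r and 0.437 to 0.937 for rho. Mgst3 ran against Alb once slide means were removed, with r = -0.54 and an adjusted permutation p of 0.017. For all 4 the pooled value joins opposite relations over the 5 arrays of single groups, given as a description. For Gstt1 r was 0.92 in WT 7 Gy and -0.80 in Il10-/- 0 Gy, and for Gsto1 it was 0.67 in WT 0 Gy and -0.76 in Il10-/- 0 Gy. For Mgst2 it was 0.82 in WT 0 Gy and -0.92 in Il10-/- 0 Gy, and for Mgst3 0.82 in Il10-/- 7 Gy and -0.90 in Il10-/- 0 Gy. Among the followers Gsta4 turned as well, from 0.95 in Il10-/- 0 Gy to -0.40 in WT 0 Gy, where it was not well above background on any array. Gsta3 and Gstm1, by contrast, ran with Alb in all 4 groups, at 0.63 to 1.00 and 0.92 to 1.00.

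**Figure D3:**
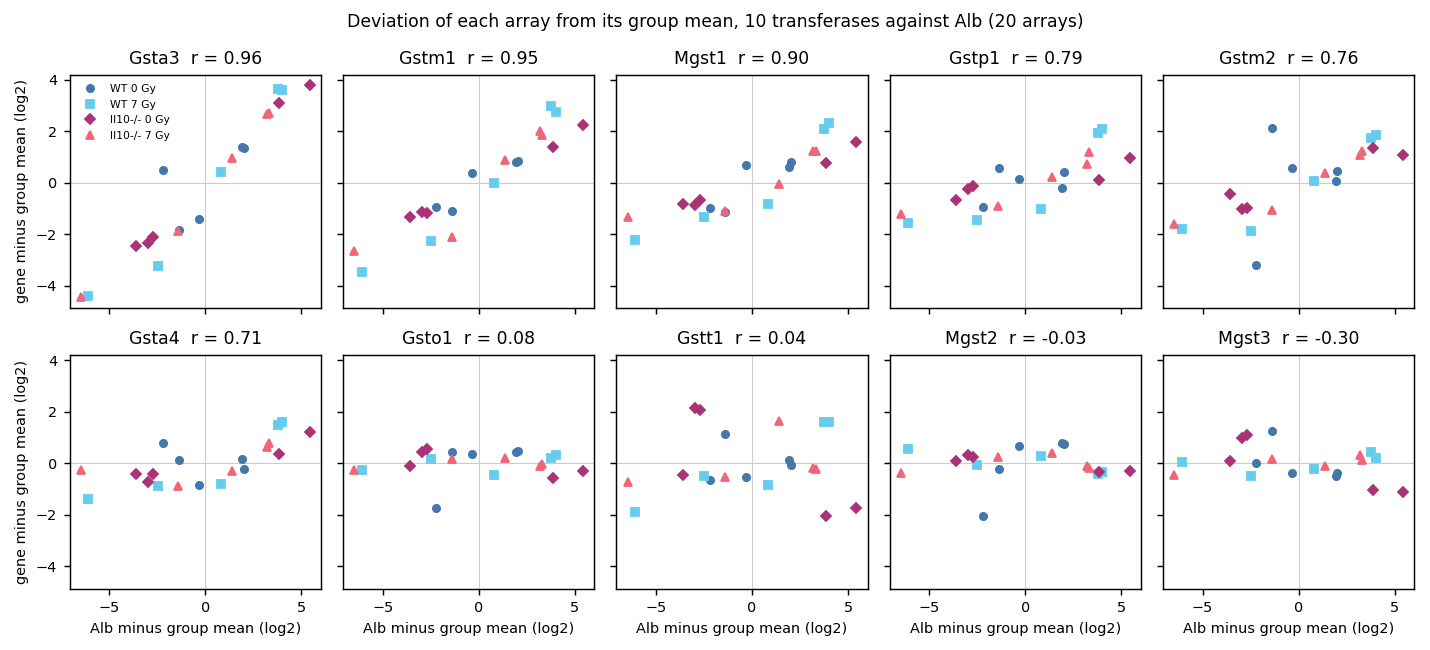
Deviation of each array from its group mean in log2 units for the 10 transferases (vertical axes) against that of Alb (horizontal axes), with 1 point per array, 20 arrays, coloured by group, and Pearson r above each panel. The points of Gsta3 and Gstm1 lie along a line (r = 0.96 and 0.95), whereas those of Gsto1, Mgst2 and Gstt1 have no common slope over the groups (0.08, -0.03 and 0.04), with Gstt1 replicates 1 and 2 of Il10-/- 0 Gy high at low Alb.

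The 6 genes that followed Alb and the 4 that did not differed in their responses, as a description, since the split used the same arrays. In the WT response the median difference was 3.36 over the 6 and 0.57 over the 4. In the Il10-/- response it was 1.09 and -0.36, with 6 of 6 and 2 of 4 genes above 0. Between the unirradiated groups it was 1.68 and 1.07. Of the called members, Gsta3 and Mgst1 belong to the first set, while Gstt1 and Mgst3 belong to the second.

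The Alb values of WT 0 Gy overlap neither with those of Il10-/- 0 Gy nor with those of WT 7 Gy, so a fit with Alb as a covariate cannot tell Alb apart from genotype label or from dose in these comparisons. With this covariate, the difference of Gstt1 between the unirradiated groups was 6.47 ± 0.78, with an adjusted p of 0.00024, and that of Gsta3 was 0.37 ± 0.69 (adjusted p 0.994) and of Mgst1 0.81 ± 0.54 (adjusted p 0.826). In the WT response limma called 0 members and 108 of 18655 features in this fit. Gstt1 differed there by 1.52 ± 0.85 with an adjusted p of 0.548. The fall of Mgst3 in the Il10-/- response was 1.81 ± 0.41 with Alb in the fit, with an adjusted p of 0.0066.

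Alb did not move alone. Over the 24 of 25 hepatocyte markers that were measured, the mean level of an array ran from 0.14 to 1.44 in WT 0 Gy, 2.07 to 10.58 in WT 7 Gy, 1.57 to 8.88 in Il10-/- 0 Gy and 1.02 to 8.76 in Il10-/- 7 Gy. Between 5 and 25 of the 25 markers were well above background on an array. The 6 genes that followed Alb had r of 0.77 to 0.97 with this mean, and the other 4 had -0.24 to 0.06. Alb is 1 of these markers, and the genes were split by their r with Alb on the same arrays. This agreement was therefore partly fixed in advance and is no separate evidence. The same 6 genes had r of 0.60 to 0.75 with the mean of 7 heart muscle markers, which ran from 0.24 to 2.81 in WT 0 Gy, 0.97 to 7.36 in WT 7 Gy, 0.17 to 3.38 in Il10-/- 0 Gy and 2.17 to 7.13 in Il10-/- 7 Gy. Where the hepatocyte and heart muscle transcripts came from, and their part in the differences of these genes, was not tested.

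The genes that followed Alb ran against the erythroid list, at r of -0.72 (Mgst1) to -0.20 (Gstm2). They also ran against the platelet list, at -0.69 (Gsta4) to -0.21 (Gstm2). Other members moved with markers of blood cells. Mgst2 ran with the monocyte and macrophage list (7 markers measured) at r = 0.84 and with the T cell list (6 markers) at 0.79, and Gsto1 with the former at 0.68. Mgst2 also had 0.64 with the B cell, 0.63 with the platelet and 0.62 with the neutrophil list, and Gsto1 had 0.64 with the platelet list. Both genes deviated most from their group mean on replicate 5 of WT 0 Gy (-2.04 and -1.74), the array with the fewest spots above background. Mgst3 ran with the erythroid list (9 markers, such as Alas2) at 0.60 and with platelet markers at 0.56. The mean platelet level of an array was 7.49 to 9.22 in WT 0 Gy and 9.42 to 10.50 in WT 7 Gy, higher after irradiation where Mgst3 was lower. In Il10-/- 0 Gy it was 8.04 to 10.76, which overlaps with the 10.5 to 11.34 of Il10-/- 7 Gy. The mean erythroid level of an array was 6.60 to 8.32 in WT 0 Gy and 6.48 to 7.87 in Il10-/- 0 Gy, and 5.06 to 6.31 in WT 7 Gy and 4.99 to 6.17 in Il10-/- 7 Gy. The irradiated arrays thus lay below the unirradiated ones in this list, as they did in Mgst3, and its part in the fall of Mgst3 was not tested. B cell markers, at 6.00 to 7.70 without and 2.60 to 3.93 with irradiation, showed the same separation, while their r with Mgst3 within groups was -0.47. These are correlations across the same 20 arrays, without a test, of lists that share arrays and scaling.

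**Figure D4:**
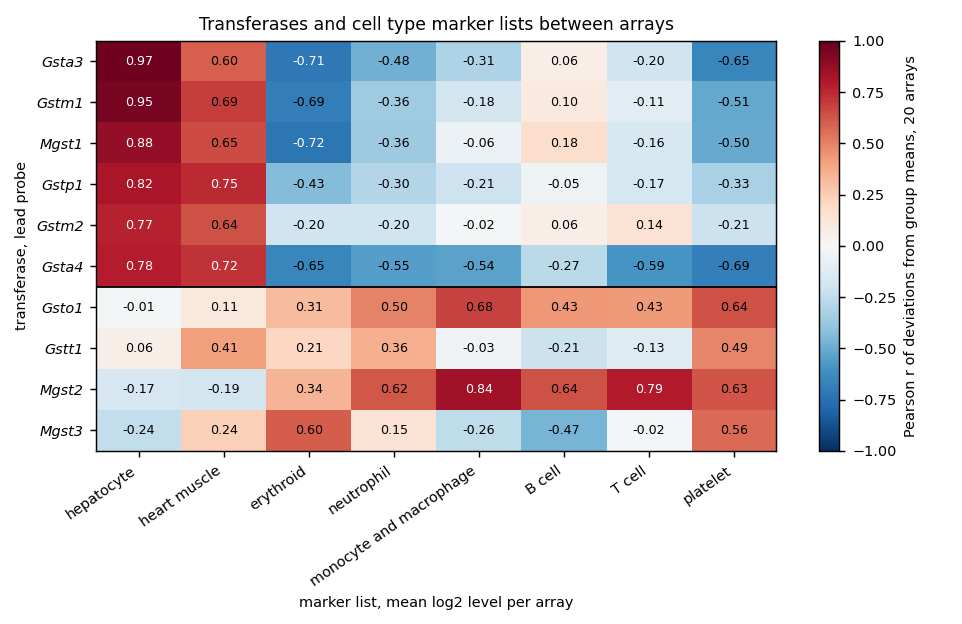
Pearson r, over 20 arrays and after removal of group means, between the lead probes of the 10 transferases (rows) and the mean log2 level of 8 lists of cell type markers (columns), with red for positive and blue for negative values. The 6 genes above the line, chosen by their r with Alb, reach 0.77 to 0.97 with hepatocyte markers, a list that includes Alb. Below the line Mgst2 reaches 0.84 with monocyte and macrophage markers and Mgst3 reaches 0.60 with erythroid markers.

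The genes most like each member over the 20 arrays, by Pearson r of deviations from the group means among 13932 genes, are given as a description. Genes most like Gsta3 included Rbp4 (0.98) and Ttr (0.98), which encode plasma carrier proteins made in liver. Gstm1 was most like Decr2, Ddt and C3 (0.99 each), and Mgst1 was most like Phyh, Bckdhb and Decr1 (0.99). Gstp1 was most like Gstp2 (0.99), Hsd11b1 and Gstk1 (0.97 each), and whether its probe also binds Gstp2 transcripts was not tested. Those most like Gstm2 included Slc16a11 and Tysnd1, and Gsta4 was nearest to Palmd (0.95), Otc and Ctf1 (0.94).

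Gstt1 was most like Grtp1 (0.94), Plekha8 (0.93) and Atp5e (0.89), and none of these is among the nearest genes of another member. Mgst3 was most like C1qtnf4 (0.94), Urod (0.92), an enzyme of haem synthesis, and Spc24 (0.92), a kinetochore protein of dividing cells. Gsto1 was most like Ubxn1, Snrnp27 and Swi5 (0.97 each), and Mgst2 was most like Trp53inp1 (0.98), Tbpl1 (0.97) and Akap13 (0.96). Among the members themselves, Gstt1 correlated most with Mgst3 (0.74) and Gsto1 with Mgst2 (0.76), and Gstm1 with Mgst1 (0.96).

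Where a gene had several probes they moved together. Over the 6 genes concerned, r between the lead probe and another probe that passed the filters was 0.94 to 0.99. The other probes of the followers had r of 0.77 to 0.97 with Alb, and the second Mgst3 probe had -0.23. The dim Gstm2 probe had 0.80 with the lead probe.

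The rest of the glutathione pathway was counted over lists of 1 probe per gene, to be read against the 0.852%, 6.78% and 9.13% of all features called between the unirradiated groups, in the WT response and in the Il10-/- response. Of 13 other transferases tested, 1 was called between the unirradiated groups, Gsta2, another alpha-class gene, which was 2.08 ± 0.44 higher in the arrays labelled Il10-/- (adjusted p 0.044). In the WT response 4 of 13 were called, all higher, led by Gstt3 (3.70 ± 0.66, adjusted p 0.0021), Gstz1 (3.61 ± 0.88, adjusted p 0.013) and Gstk1 (2.63 ± 0.64, adjusted p 0.013). Ltc4s, the leukotriene C4 synthase, was the 1 gene called in the Il10-/- response, where it was 1.96 ± 0.25 higher (adjusted p 0.00037). The median difference over the 13 genes was 1.5, 1.99 and 0.70 in these comparisons, against 0.35, -0.03 and -0.10 over all genes.

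Among 14 genes of glutathione synthesis, reduction and breakdown, 1 was called higher between the unirradiated groups, Ggt1, which starts glutathione breakdown at the cell surface (1.77 ± 0.37, adjusted p 0.043). In the WT response 2 were called higher, the peptidase gene Anpep (3.68 ± 0.63) and Idh1 (2.33 ± 0.45), which makes NADPH. Gclm, a subunit of the enzyme that limits glutathione synthesis, fell by 1.72 ± 0.41 (adjusted p 0.011). Chac2, an enzyme of glutathione breakdown, was the 1 gene called in the Il10-/- response, where it fell by 1.64 ± 0.29 (adjusted p 0.0026). The median difference over the 14 genes was 1.06, 0.84 and 0.058 in these comparisons.

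Of 12 glutathione peroxidases and glutaredoxins, 1 was called higher between the unirradiated groups, 3 higher and 1 lower in the WT response, and 2 higher and 2 lower in the Il10-/- response. Gpx3, the plasma peroxidase, was called higher between the unirradiated groups (2.04 ± 0.49, adjusted p 0.081) and in the WT response (3.37 ± 0.55, adjusted p 0.0012), where Gpx8 rose by 2.24 ± 0.52 (adjusted p 0.011). Glrx5, a glutaredoxin of iron-sulfur cluster assembly that red cell precursors need, fell by 2.29 ± 0.44 in the WT response and by 2.53 ± 0.33 in the Il10-/- response. Gpx1, an abundant peroxidase of red blood cells, fell by 1.92 ± 0.32 in the latter (adjusted p 0.0021), and Gpx7 rose there by 1.57 ± 0.31 (adjusted p 0.0050). The median difference over the 12 genes was 0.53, 0.82 and 0.37 in the 3 comparisons. A list for the transcription factor Nrf2 held targets, its own gene Nfe2l2 and its regulator Keap1, and 8 of its 10 genes were tested. Of these, 2 were called in each radiation response, Srxn1 (1.64 ± 0.35 and 1.76 ± 0.36) and Akr1b8 (1.99 ± 0.43 and 1.09 ± 0.23). Between the unirradiated groups 1 was called, Gsta2, which is also counted among the other transferases. The median difference over the 8 genes was 0.65 between the unirradiated groups, 1.25 in the WT response and 0.31 in the Il10-/- response.

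Nrf2 binds the antioxidant response element, whose core was searched as TGACNNNGC on both strands in RefSeq promoters of build GRCm38.p6, from 250 bases before to 50 bases after each start site. Of the 10 members, 9 had a promoter in the table, and 2 of these held the core, against 12.4% of 32851 promoters of that length. The 2 matches, in Gsta3 and Mgst1, are the only ones among the members and are shown with the core in capitals. Members are counted as genes and the share is over promoters, and the difference between them was not tested. A match is a description of letters and not of binding.
Gsta3, GRCm38.p6 chr1:21240335-21240634, plus strand, core from position -121: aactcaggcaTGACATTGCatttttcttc
Mgst1, the first of 2 start sites listed, GRCm38.p6 chr6:138140277-138140576, plus strand, core on the other strand from position -56: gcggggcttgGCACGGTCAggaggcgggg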

How the data were processed

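Blood RNA of 20 mice was hybridised with Cy3 to single-colour Agilent arrays. The labels gave the group and the replicate number of each array. For each array the authors deposited the Feature Extraction output, in which 1 processed intensity per spot has had background and spatial trend removed but no scaling across arrays. The submitters' processing notes name version 10.7, and the file headers name 12.0.2.2. The authors also deposited processed log2 values of 16909 features in tabular form, used as an alternative. Each of its columns equals log2 of the intensity plus 1 constant per array, with column medians of 5.21 to 6.76. Its columns were all mapped to samples. Each of the 5 slides holds 1 array of every group and 1 replicate number. Same-slide arrays deviated together by a mean r of 0.22 between WT 0 Gy and WT 7 Gy, 0.41 between the irradiated groups and -0.13 to 0.07 otherwise. No pair of groups had all 5 values over 0.1. The fits were made without the slide as a block, which was an alternative.

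After log2 conversion, outlier spots were dropped, repeated spots were averaged per probe, and every array was centred on its median across 39429 non-control probes. With the filters of the paper, probes that were outliers or not above background on 25% or more of arrays were removed (23069 kept), and so were probes with under 20% of arrays at least 1.5-fold from their median (18655 kept). Each comparison was fitted in limma 3.58.1 (R 4.3.3) with moderated variances, and calls needed p under 0.001 and a Benjamini-Hochberg adjusted p under 10%. Correlations with Alb used 100000 permutations within groups, 2-sided. Where the text says that groups do not overlap, the exact permutation test of 5 against 5 arrays gives its smallest p, 0.0079. The number of arrays and the signal over background limit the precision. The text names all 10 members, Alb, the 3 genes most like each member and up to 3 called genes per pathway list and comparison. Some of these genes are not reported here. Members and lists were chosen with earlier results of these data known. Alternatives were other scalings, the authors' processed values, normexp with an offset of 50, other filters, a joint fit of all groups, unmoderated variances, the replicate block, Alb as a covariate and leaving out arrays. Averaging replicates 1 and 2 was added after the data were seen. The code was tested on simulated data.

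Probes are placed as the array annotation gives them (mouse build mm9). All 17 accessions of member probes were matched to RefSeq. Promoters are from RefSeq, GRCm38.p6.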

Additional observations from a re-analysis of the deposited data

Results flagged for a closer look

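Of 40 sets of 5 arrays examined, 1 for each lead probe in each group, 3 held an array far from the other 4, where chance alone gives about 1 in 20. For Gstt1 in Il10-/- 7 Gy, replicate 4 read 9.37 with the next array at 7.56. For Gsto1 in WT 0 Gy, replicate 5 read 3.83 with the next array at 5.92, on the array with 29.9% of its spots well above background, the lowest share of all 20. For Mgst3 in WT 0 Gy, replicate 4 read 7.64 with the next array at 6.40.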

How the results depend on the processing

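With 5 arrays per group, and signals near background for Gsta3 and Gsta4 in WT 0 Gy, small differences were not detectable. The causes of the changes below were not tested. Between the unirradiated groups the count of 3 called members became 1 (Gstt1) with the 75th percentile, quantile, reference-array and authors' table scalings, with all 4 groups in 1 fit, Alb as a covariate and a Benjamini-Hochberg rate under 5% alone, and 0 with normexp and without moderation. In the WT response the count of 3 became 1 with normexp and without moderation, 0 with Alb as a covariate, 5 with all groups in 1 fit and 7 at 5%. In the Il10-/- response the count of 1 became 0 with normexp, without moderation and with replicates 1 and 2 averaged, and 2 at 5%. Leaving out single arrays gave 1 to 3, 1 to 5 and 0 to 1 called members in these comparisons. The features called in all, 159, 1265 and 1703 in these 3 comparisons, ranged from 0 (normexp) to 376 (block), from 108 (Alb) to 2721 (5% alone) and from 0 (normexp) to 4054 (5% alone).

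With the replicate number (slide) as a replicate block, the count was 3 between the unirradiated groups (376 features called against 159), 5 in the WT response (Gstm1 and Gstm2 added) and 1 in the Il10-/- response, and the block changed no other call of a member.

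Of 1180 alternative differences, 1053 kept their direction and side of the threshold, and 58 turned direction. Between the unirradiated groups Gsta4 turned to -0.0045 and Mgst3 to -0.0063 with the 75th percentile, Mgst3 to -0.083 with quantiles and -0.025 with replicates 1 and 2 averaged, and Gsta4 to -0.39 in the authors' table. With Alb as a covariate Gsta4 turned to -0.37 and Gstm1 to -0.55 there, and in the WT response Gsta3 to -0.88, Gsta4 to -0.35, Gstm1 to -2.12, Gstm2 to -0.28, Gstp1 to -0.98 and Mgst1 to -0.54. In the Il10-/- response that covariate gave -0.26 for Gsta3, -0.13 for Gstp1 and -0.30 for Mgst1, replicates 1 and 2 averaged gave -0.031 for Gstp1 and -0.23 for Mgst1, and normexp gave -0.34 for Gstt1. Between the irradiated groups Gstm2 turned to -0.067, -0.081, -0.021, -0.022 and -0.60 with the 75th percentile, quantiles, reference array, authors' table and normexp, Gstt1 to -0.21 with normexp, Gsta4 to 0.29 in the authors' table, and Gsta3 to 0.32 and Gstm1 to 0.087 with Alb. In the interaction Mgst2 turned to 0.048, 0.10, 0.026 and 0.023 under the first 4 of these, Gsta4 to 0.69 in the authors' table, and Gsta3, Gsta4, Gstm1 and Gstm2 to 0.29, 0.50, 1.22 and 0.61 with Alb. With single arrays left out, the Il10-/- response was -0.48 to 0.56 for Gstt1, -0.044 to 0.56 for Gstp1 and -0.038 to 0.67 for Mgst1. The difference between irradiated groups was -1.67 to 0.54 for Gsta3, -0.70 to 0.048 for Gsta4, -1.43 to 0.18 for Gstm1 and -0.44 to 0.49 for Gstm2, and the Mgst2 interaction was -0.41 to 0.30.

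Of 270 alternative correlations with Alb, 248 kept their sign and their side of an adjusted permutation p of 5%, and 21 changed sign. The count of 6 members at r of 0.7 or more became 5 with the 75th percentile, the reference array and the authors' table. It was also 5 with slide means removed and with replicates 1 and 2 averaged. Gsta4 had r = 0.64 with the reference array, and 0.64 without replicate 4 of WT 7 Gy. Gstt1 turned to -0.021 and Gsto1 to -0.11 with the 75th percentile, to -0.021 and -0.12 with quantiles, and to -0.25 and -0.18 with the replicate block (slide means removed). Gsto1 turned to -0.013 with the hepatocyte marker mean, Mgst2 to 0.25 and Mgst3 to 0.22 with normexp, and Mgst2 to 0.012 with replicates 1 and 2 averaged. With single arrays left out r was -0.16 to 0.21 for Gstt1, -0.10 to 0.18 for Gsto1 and -0.30 to 0.086 for Mgst2. Gsta4 differences could not be fitted under normexp or where probes had to be well above background on all arrays of a group, since its probe was removed.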
